A study of Homo sapiens with 12 samples.

Results

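The genes described here are 41 genes of the unfolded protein response and of the folding, quality control and export machinery of the endoplasmic reticulum (ER). They were taken by gene symbol from a count table of 22545 genes, and all 41 were found in it. A filter on low counts kept 14207 genes for testing, 40 of the 41 among them. The gene that did not pass was DERL3, a Derlin of ER-associated degradation, with 4 counts over all 12 libraries.

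The libraries were made from HaCaT cells, an immortalised human keratinocyte line, and all carry the genotype label WT. They form 4 groups of 3: cells with no treatment (WT), cells given M5 (M5), cells given M5 and lefamulin (ML) and cells given M5 and retapamulin (MR). The components of M5 are not listed in the labels; in keratinocyte work the name commonly stands for a mix of inflammatory cytokines used to model psoriasis. Lefamulin and retapamulin are pleuromutilin antibacterials with the same tricyclic core and different side chains. No dose, exposure time or solvent is given, and neither compound was given without M5 in the libraries used here. All libraries come from 1 cell line, and nothing says that the 3 libraries of a group were separate cultures, so the spread behind each p-value may be technical.

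Proteins that enter the secretory pathway fold in the ER with the help of chaperones, lectins and disulfide enzymes, and those that fail are returned to the cytosol and degraded. When unfolded proteins build up, the sensors IRE1 (gene ERN1), PERK (gene EIF2AK3) and ATF6 raise the transcription of this machinery. IRE1 splices the mRNA of XBP1 into a form that encodes an active transcription factor, PERK favours translation of ATF4, and ATF6 is cut to release its own transcription factor domain. In epidermis, the response is known to be active when keratinocytes differentiate.

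ATF6 and XBP1 are known to act through short promoter elements, so the promoters of the genes were read from RefSeq (GRCh38.p14, 250 bases before to 50 after the start). Entries existed for 37 of the 41 genes; PDIA3, DERL1, DERL3 and SEC24D had none. On either strand, the ER stress response element (ERSE, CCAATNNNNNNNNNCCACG) was in 8 of the 37 promoters, 21.6%, and in 25 of 27305 genes with an entry, 0.0916%. The related element ERSE-II (ATTGGNCCACG) was in 3 of the 37, 8.11%, and in 0.0696% of all genes. The core of the unfolded protein response element (UPRE, TGACGTGG) was in 2 of the 37, 5.41%, and in 0.927% of all genes. At least 1 of the motifs was in 12 of the 37, 32.4%, against 1.08% of all genes. Members of this response helped to define these elements, so the shares describe the promoters and test nothing, and a match is not evidence of binding in these cells. The stretches below are shown because they hold the matches of genes described in the results, with the fixed letters of each motif in capitals, 5′ to 3′ in the direction of the gene.
HSPA5: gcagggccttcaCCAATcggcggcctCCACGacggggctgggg
XBP1: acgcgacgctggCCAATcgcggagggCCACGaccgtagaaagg
PDIA6: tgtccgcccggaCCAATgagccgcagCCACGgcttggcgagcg
CANX: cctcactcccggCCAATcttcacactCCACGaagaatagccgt
CALR: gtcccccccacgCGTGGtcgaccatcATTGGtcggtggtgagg
CRELD2: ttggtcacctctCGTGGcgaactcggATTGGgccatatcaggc
ERO1B: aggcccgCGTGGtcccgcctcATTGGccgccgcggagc
HERPUD1: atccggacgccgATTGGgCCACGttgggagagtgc
SDF2L1: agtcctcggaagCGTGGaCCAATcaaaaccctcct
DNAJC10: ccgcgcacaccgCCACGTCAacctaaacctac
HYOU1: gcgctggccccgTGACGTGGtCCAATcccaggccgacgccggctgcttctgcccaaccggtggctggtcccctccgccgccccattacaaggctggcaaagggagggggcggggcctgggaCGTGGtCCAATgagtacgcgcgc
HSP90B1: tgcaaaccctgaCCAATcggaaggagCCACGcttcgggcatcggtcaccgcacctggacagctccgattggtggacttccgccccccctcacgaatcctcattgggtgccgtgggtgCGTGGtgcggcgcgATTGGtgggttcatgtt

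The HSPA5 stretch lies at chr9:125241379-125241421 on the minus strand and the XBP1 stretch at chr22:28800591-28800633 on the minus strand. Those of PDIA6 and CANX lie at chr2:10812841-10812883 on the minus strand and chr5:179698766-179698808 on the plus strand. In CALR (chr19:12938372-12938414 on the plus strand), CRELD2 (chr22:49918542-49918584 on the plus strand) and ERO1B (chr1:236282171-236282208 on the minus strand) the ERSE reads on the opposite strand. HERPUD1 (chr16:56932013-56932047 on the plus strand) and SDF2L1 (chr22:21642102-21642136 on the plus strand) hold an ERSE-II, the second on the opposite strand. DNAJC10 (chr2:182716120-182716151 on the plus strand) holds a UPRE core on the opposite strand. HYOU1 (chr11:119057262-119057405 on the minus strand) holds 2 ERSE-II on the opposite strand, and its UPRE core overlaps the first of them. HSP90B1 (chr12:103930204-103930351 on the plus strand) holds an ERSE on each strand. For the other 25 genes with an entry, among them DNAJB9, MANF, EIF2AK3, EDEM1 and SELENOS, these letters were not in the window.

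Most of the 41 genes were higher with M5 than without it, and higher again when either compound was added to M5. Levels are in CPM (the count of a gene over its TMM-scaled library size), and a gene is called, and said to rise or fall, when edgeR's quasi-likelihood test gave a Benjamini-Hochberg adjusted p under 0.05 over all tested genes. With M5, 38 of the 40 tested genes rose and ATF6B fell, while 28.3% of all tested genes were called higher and 26.9% lower. EDEM2 was not called. The median log2 fold change of the 40 genes was 0.52, against -0.020 over all tested genes, and 7 genes were at least 2-fold higher. Of all tested genes 5.07% were at least 2-fold higher. With lefamulin added, 36 of the 40 rose relative to M5 and none fell, while 33.6% of all tested genes were called higher and 34.3% lower. The median was 0.42 against -7.5e-04 over all tested genes, and 6 genes were at least 2-fold higher, as were 9.09% of all tested genes. With retapamulin added, 37 of the 40 rose and none fell, while 34.1% of all tested genes were called higher and 38.0% lower. The median was 0.51 against -0.054, and 7 genes were at least 2-fold higher, as were 9.81% of all tested genes. Both compound comparisons share the M5 libraries, so their values are set side by side and no overlap is counted. Bulk libraries cannot tell apart a change in RNA per cell from a change in which cells were present.

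Against untreated cells, M5 with lefamulin gave 38 genes higher and none lower, where 36.9% of all tested genes were higher and 37.1% lower. M5 with retapamulin gave 39 higher and none lower, where 37.6% were higher and 40.9% lower. The shares of all tested genes at least 2-fold higher were 12.4% and 13.3%. The medians of the 40 genes were 1.01 and 1.12 on the log2 scale, with 20 and 23 genes at least 2-fold higher. Their combined share of all counts was 0.846% to 0.850% in untreated libraries, 1.15% to 1.16% with M5, 1.44% to 1.45% with lefamulin and 1.54% to 1.55% with retapamulin, with no overlap between groups. Scaling by library totals alone lowered the median of all tested genes to -0.14 for M5 against untreated cells, -0.19 for retapamulin against M5, -0.18 for M5 with lefamulin and -0.31 for M5 with retapamulin against untreated cells. The medians of the 40 genes were then 0.40, 0.37, 0.84 and 0.86.

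**Figure D1:**
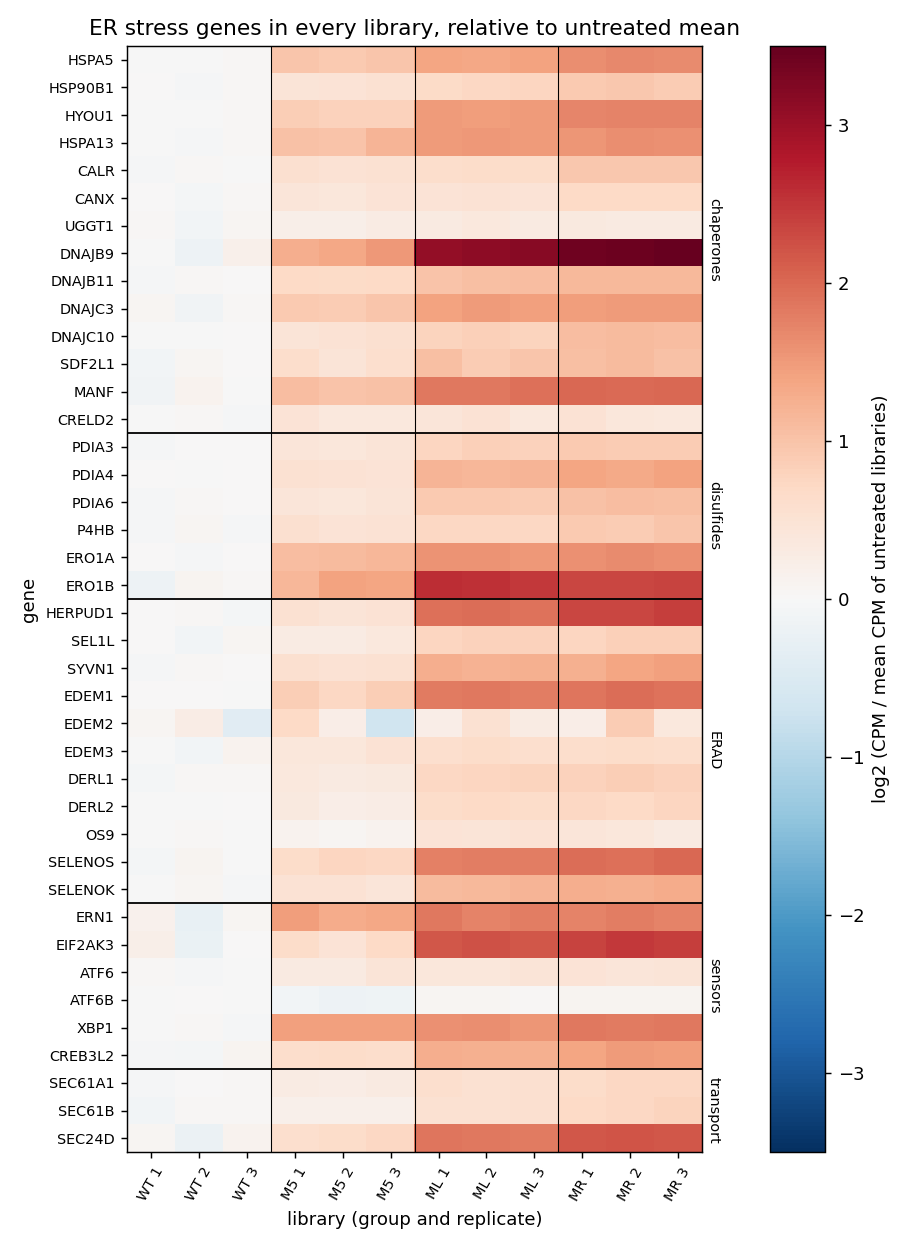
Level of each tested gene (rows, grouped by role) in each of the 12 libraries (columns), as log2 of its CPM over the mean CPM of the 3 untreated libraries (colour scale). The rows of DNAJB9, ERO1B, HERPUD1 and EIF2AK3 darken most with either compound, while ATF6B, CRELD2 and UGGT1 stay pale.

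Chaperones of the ER lumen and their cofactors rose together with M5. All 14 were called higher, from 0.23 for UGGT1 to 1.38 for DNAJB9 on the log2 scale, with a median of 0.62. The share of all tested genes called higher was 28.3%. HSPA5 encodes BiP, the Hsp70 of the ER and the binding partner that holds the sensors inactive. HSPA5 was at 724, 721 and 746 CPM in the 3 untreated libraries, 1420, 1378 and 1426 with M5, 1907, 1884 and 1930 with lefamulin added and 2272, 2334 and 2311 with retapamulin added. The 4 groups did not overlap. The log2 fold change was 0.95 (SE 0.026, adjusted p = 6.50e-20) for M5 against untreated cells, 0.44 (SE 0.026, adjusted p = 2.15e-13) for lefamulin and 0.71 (SE 0.026, adjusted p = 1.04e-17) for retapamulin against M5. Relative to untreated cells, HSPA5 was 2.61-fold higher with M5 and lefamulin and 3.15-fold higher with M5 and retapamulin.

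The J-domain cochaperones of BiP ranged widely. DNAJB9 (ERdj4) is known to restrain IRE1 through BiP. DNAJB9 was at 6.85, 6.04 and 7.75 CPM in the 3 untreated libraries, 16.6, 17.5 and 19.8 with M5, 57.5, 60.7 and 62.2 with lefamulin added and 72.9, 73.8 and 76.7 with retapamulin added. No library of any group overlapped another group. Its log2 fold change was 1.38 (SE 0.079) with M5, 1.74 (SE 0.063, adjusted p = 1.23e-17) with lefamulin and 2.05 (SE 0.063, adjusted p = 2.65e-19) with retapamulin. Against untreated cells that came to 8.73-fold and 10.8-fold. DNAJC3, an inhibitor of PERK, rose by 0.93 with M5, 0.51 with lefamulin and 0.55 with retapamulin. DNAJB11 (ERdj3), which brings unfolded clients to BiP, rose by 0.69, 0.36 and 0.45 in the same order. DNAJC10 (ERdj5), a disulfide reductase, rose by 0.51, 0.29 and 0.58. SDF2L1, a partner of ERdj3, rose by 0.55, 0.42 and 0.51.

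HYOU1 (GRP170), a nucleotide exchange factor of BiP, went from 338 ± 6.66 CPM in untreated cells to 595 ± 12.7 with M5, 946 ± 6.35 with lefamulin and 1123 ± 7.11 with retapamulin (mean ± SD, n = 3). Each of the 3 steps passed the test, with log2 fold changes of 0.81, 0.67 and 0.92. MANF is a small secreted protein that binds BiP. MANF was at 53.4, 62.3 and 57.1 CPM in the 3 untreated libraries, 122, 116 and 117 with M5, 208, 208 and 218 with lefamulin added and 230.5, 227 and 234 with retapamulin added. The lowest M5 library was above the highest untreated library, and the lowest compound library was above the highest M5 library. MANF rose by 1.04 (SE 0.044) with M5, 0.84 (SE 0.042) with lefamulin and 0.96 (SE 0.042) with retapamulin. HSPA13, an Hsp70-like ATPase of microsomes, rose by 1.07, 0.42 and 0.52. HSP90B1 (GRP94), the Hsp90 of the ER, rose by 0.48, 0.24 and 0.43.

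The lectin chaperones, which hold monoglucosylated glycoproteins, had small steps with lefamulin. CALR (calreticulin) was at 857, 908 and 871 CPM in untreated libraries, 1290, 1249 and 1260 with M5, 1354, 1362 and 1362 with lefamulin and 1675, 1674 and 1698 with retapamulin. Its step from M5 to lefamulin was 0.10 (SE 0.027, adjusted p = 0.00178), and on library totals it was 0.055 with an adjusted p of 0.0514. With retapamulin it rose by 0.41 (SE 0.027, adjusted p = 1.06e-12). CANX (calnexin), the membrane-bound counterpart, rose by 0.43 with M5 and by 0.27 with retapamulin. Its difference between lefamulin and M5 was 0.062 with a 95% interval of -0.0015 to 0.12 and an adjusted p of 0.0776 by edgeR, and it passed (0.079, adjusted p = 0.0471) without the third M5 library. It was also called with a stricter filter on low counts and in a fit of only the groups compared.

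UGGT1 marks misfolded glycoproteins for another round with these lectins. It rose by 0.23 (SE 0.039) with M5 (0.11 on library totals, still called), and its compound steps of 0.11 (SE 0.039, adjusted p = 0.0176) and 0.093 (SE 0.039, adjusted p = 0.0357) were small. The lefamulin call of UGGT1 was lost without the first M5 library (adjusted p = 0.0752), the second M5 library (0.0694) or the second lefamulin library (0.0947). It was also lost on library totals (0.061, adjusted p = 0.158) and in limma on FPKM (adjusted p = 0.22 and 0.219 for pseudocounts of 1 and 0.1). Its retapamulin call was lost without the first or second M5 library (0.121 and 0.115) or any of the 3 retapamulin libraries (0.111, 0.0543 and 0.0609), and on library totals the step was -0.042 and not called. CRELD2, a stress-inducible secreted protein of the ER, had no called compound step. CRELD2 was at 31.7, 33.1 and 31.5 CPM in the 3 untreated libraries, 44.8, 41.4 and 41.9 with M5, 42.7, 45.9 and 41.2 with lefamulin added and 45.2, 42.5 and 41.2 with retapamulin added. The untreated libraries were the lowest, and the other 3 groups overlapped one another. CRELD2 rose by 0.41 (SE 0.052, adjusted p = 3.19e-07) with M5. The compound steps of CRELD2 were 0.019 (95% interval -0.087 to 0.12) and 0.0088 (-0.097 to 0.12), and neither passed the test. On library totals its retapamulin step was -0.13 (edgeR, adjusted p = 0.0347).

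Enzymes that form and reshuffle disulfide bonds rose in all 3 steps. All 6 were called higher with M5, with lefamulin and with retapamulin, with medians of 0.52, 0.46 and 0.57. For all tested genes the shares called higher were 28.3%, 33.6% and 34.1%, with medians of -0.020, -7.5e-04 and -0.054. ERO1A is an oxidase that recharges protein disulfide isomerases. ERO1A was at 195, 188 and 195 CPM in the 3 untreated libraries, 406, 414 and 434 with M5, 568, 578 and 553 with lefamulin added and 589, 608 and 585 with retapamulin added. All 4 groups were separate, and the log2 fold changes were 1.12 (SE 0.033), 0.44 (SE 0.032) and 0.51 (SE 0.032). Its paralog ERO1B was at 4.17, 5.01 and 4.85 CPM in untreated libraries, 10.4, 12.4 and 12.1 with M5, 28.3, 27.3 and 25.9 with lefamulin and 23.6, 23.5 and 23.9 with retapamulin. It rose by 1.32 (SE 0.09) with M5, 1.22 (SE 0.077) with lefamulin and 1.02 (SE 0.078) with retapamulin.

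Among the isomerases, PDIA4 (ERp72) had the largest compound steps. PDIA4 was at 211, 208 and 211 CPM in the 3 untreated libraries, 306, 299.8 and 294 with M5, 480.2, 472 and 476 with lefamulin added and 543, 528 and 554 with retapamulin added. All 4 groups were separate, and PDIA4 rose by 0.51, 0.67 (SE 0.029, adjusted p = 5.68e-16) and 0.85 (SE 0.029, adjusted p = 2.87e-18). PDIA6 (P5), a BiP-associated isomerase, rose by 0.42, 0.48 and 0.63. PDIA3 (ERp57), which works with calreticulin and calnexin, rose by 0.43, 0.37 and 0.47. P4HB, the classical protein disulfide isomerase and also a subunit of prolyl hydroxylase, rose by 0.52, 0.20 and 0.41. PDIA3 and PDIA6 overlap other genes on the genome (ELL3 and ATP6V1C2), which had 3582 and 4535 counts over all libraries against 345422 and 233758 for the isomerases.

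**Figure D2:**
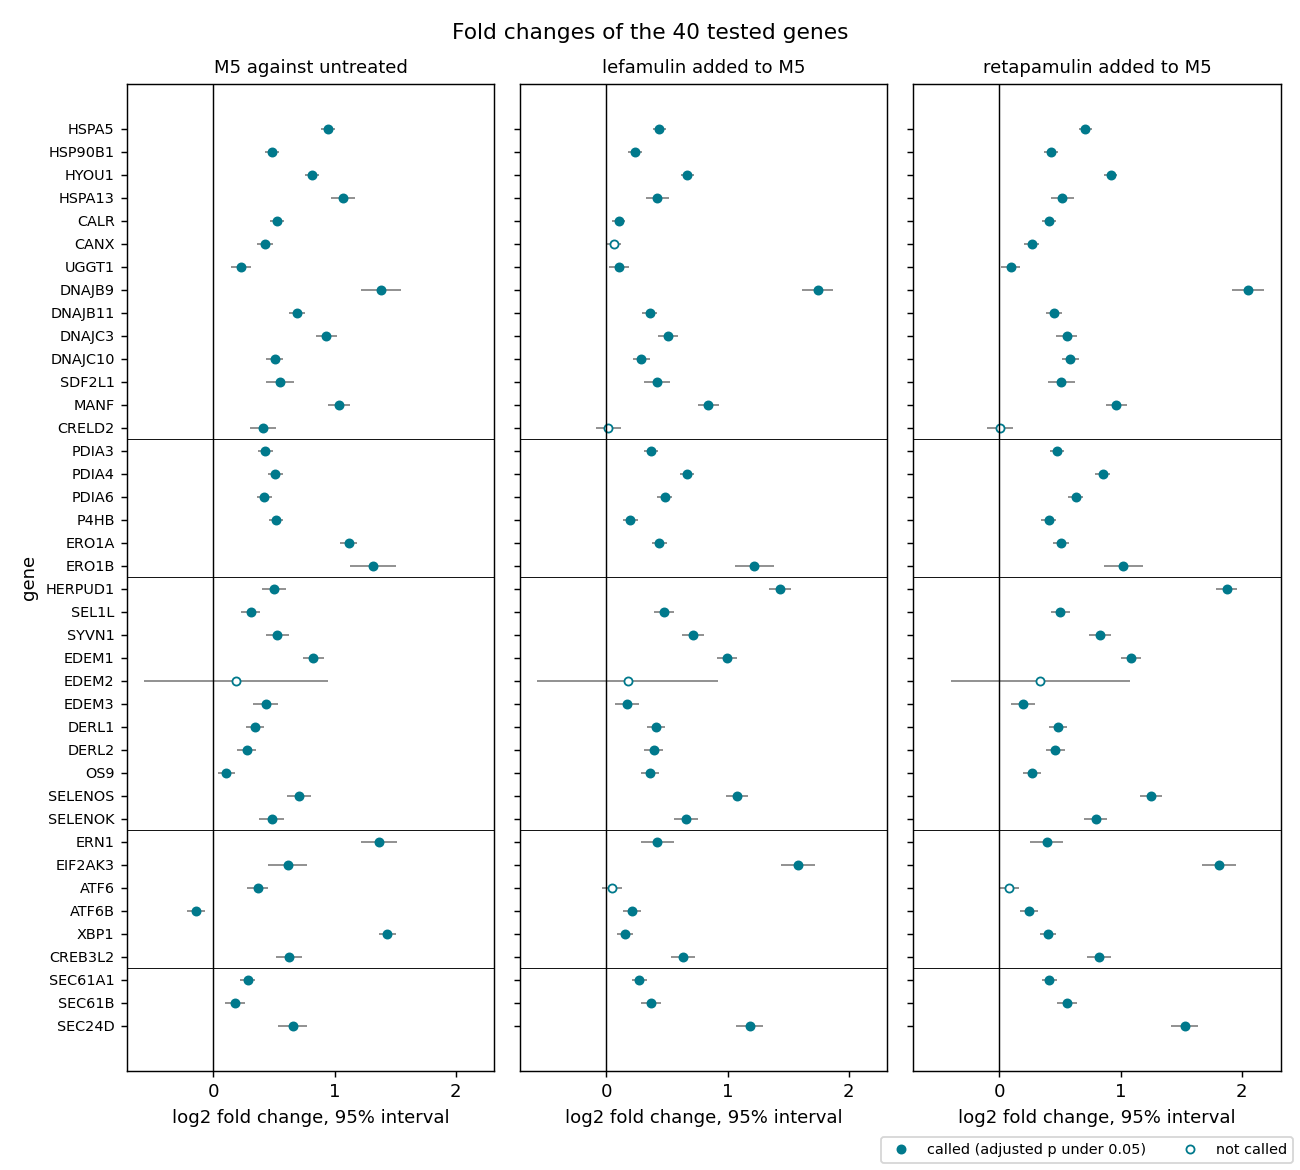
Log2 fold change (horizontal axis, with 95% interval) of each of the 40 tested genes for M5 against untreated cells, lefamulin added to M5 and retapamulin added to M5. Filled points are called; with M5, ATF6B is the single called gene left of 0, and XBP1, DNAJB9 and ERN1 lie farthest right.

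Genes of ER-associated degradation, which moves failed proteins to the cytosol for the proteasome, had medians of 0.43 with M5, 0.48 with lefamulin and 0.50 with retapamulin. With M5, 10 of 11 tested genes rose, with lefamulin 10 and with retapamulin 10, EDEM2 being the exception each time. Among all tested genes 28.3%, 33.6% and 34.1% were called higher. HERPUD1 organises the degradation complex around the HRD1 ligase. HERPUD1 was at 22.0, 22.5 and 20.8 CPM in the 3 untreated libraries, 31.5, 29.6 and 31.0 with M5, 82.8, 84.5 and 81.2 with lefamulin added and 110.5, 111 and 116 with retapamulin added. Untreated and M5 libraries were close together and separate, and both compound groups lay far above them. HERPUD1 rose by 0.50 (SE 0.048) with M5, 1.43 (SE 0.044, adjusted p = 3.72e-19) with lefamulin and 1.87 (SE 0.043, adjusted p = 9.80e-22) with retapamulin. SELENOS, a selenoprotein that links the complex to the p97 ATPase, was at 26.3 ± 1.49 CPM in untreated cells, 43.0 ± 1.63 with M5, 90.6 ± 0.536 with lefamulin and 102 ± 2.75 with retapamulin (mean ± SD, n = 3). It rose by 0.71, 1.08 and 1.25.

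EDEM1, a mannosidase-like protein that hands glycoproteins to degradation, rose at each step as well. EDEM1 was at 52.2, 51.8 and 50.7 CPM in the 3 untreated libraries, 94.2, 85.5 and 94.0 with M5, 181, 185 and 179 with lefamulin added and 189, 201 and 191 with retapamulin added. Its groups of untreated, M5 and compound-treated libraries did not overlap, and its log2 fold changes were 0.82 (SE 0.042), 0.99 (SE 0.04) and 1.09 (SE 0.04). SYVN1 (HRD1), the ubiquitin ligase of the complex, rose by 0.53, 0.71 and 0.83, and its adaptor SEL1L by 0.31, 0.48 and 0.50. SYVN1 overlaps MRPL49, a gene with more counts, so its values are uncertain. SELENOK, another selenoprotein of the ER membrane, rose by 0.48, 0.66 and 0.79. The Derlins DERL1 and DERL2 form part of the exit channel: DERL1 rose by 0.34, 0.41 and 0.48, and DERL2, which overlaps MIS12, by 0.28, 0.39 and 0.46.

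OS9, a lectin that reads trimmed glycans, and EDEM3, a mannosidase, had small steps. OS9 was at 153, 159.5 and 152 CPM in untreated libraries and 169, 162 and 169.5 with M5, a rise of 0.11 (SE 0.035, adjusted p = 0.0112) that was -0.01 on library totals. With lefamulin OS9 rose by 0.36 and with retapamulin by 0.27. EDEM3 rose by 0.43 with M5, 0.17 with lefamulin and 0.19 with retapamulin, and the last step was 0.057 on library totals and not called. EDEM2 was at 1.03 CPM or less in every library. Its 95% intervals were -0.57 to 0.94, -0.57 to 0.92 and -0.40 to 1.08 for the 3 steps, so no difference was detectable at such low counts. EDEM2 overlaps a read-through gene, so its few counts are uncertain.

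The sensors and transcription factors did not move as a block. By its estimate, XBP1 had the largest M5 step of the 40 genes. XBP1 was at 71.0, 72.8 and 69.2 CPM in the 3 untreated libraries, 193, 191 and 191 with M5, 215, 218 and 207 with lefamulin added and 255, 252 and 253 with retapamulin added. The step from untreated to M5 spanned the widest gap. XBP1 rose by 1.44 (SE 0.034, adjusted p = 2.39e-21) with M5, by 0.15 (SE 0.032, adjusted p = 2.04e-04) with lefamulin and by 0.40 (SE 0.032, adjusted p = 5.26e-11) with retapamulin. These counts cover the gene as a whole and cannot separate spliced from unspliced XBP1 mRNA. ERN1 encodes IRE1, the enzyme that splices XBP1. ERN1 was at 14.2, 10.8 and 13.6 CPM in the 3 untreated libraries, 35.5, 31.4 and 32.6 with M5, 46.3, 42.8 and 44.3 with lefamulin added and 42.6, 44.9 and 43.2 with retapamulin added. Untreated libraries were the lowest, M5 libraries were next, and the lefamulin and retapamulin libraries overlapped. ERN1 rose by 1.36 (SE 0.073), 0.42 (SE 0.065) and 0.39 (SE 0.066).

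EIF2AK3, the gene of PERK, had its smallest step with M5. EIF2AK3 was at 18.8, 13.8 and 16.6 CPM in the 3 untreated libraries, 25.6, 22.8 and 26.8 with M5, 74.6, 76.2 and 74.0 with lefamulin added and 84.1, 91.8 and 88.4 with retapamulin added. Both compound groups were far above all M5 libraries. EIF2AK3 rose by 0.61 (SE 0.076, adjusted p = 2.54e-07) with M5, 1.58 (SE 0.068, adjusted p = 3.41e-16) with lefamulin and 1.81 (SE 0.068, adjusted p = 1.40e-17) with retapamulin. CREB3L2, a membrane-bound transcription factor that controls secretory genes, rose by 0.62, 0.63 and 0.82.

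ATF6 and its relative ATF6B moved little. ATF6 was at 86.0, 81.5 and 82.3 CPM in the 3 untreated libraries, 104, 104 and 114 with M5, 109.5, 110.1 and 114 with lefamulin added and 115, 112 and 113 with retapamulin added. The untreated libraries were lowest, and the other 3 groups overlapped. ATF6 rose by 0.37 (SE 0.041) with M5, and its compound steps of 0.049 (95% interval -0.035 to 0.13) and 0.079 (-0.0051 to 0.16) were not called. Without the third M5 library, which was the highest of its group, the ATF6 steps were 0.094 and 0.13 and both passed (edgeR, adjusted p = 0.0447 and 0.0081). With DESeq2 the retapamulin step of ATF6 was 0.11 (adjusted p = 0.0113). That step was also called with RLE size factors, a stricter filter on low counts and a fit of only the groups compared. ATF6B was at 94.4, 97.8 and 95.7 CPM in the 3 untreated libraries, 89.2, 85.0 and 86.2 with M5, 101, 100.4 and 99.4 with lefamulin added and 103, 103 and 103 with retapamulin added. The M5 libraries were the lowest for ATF6B. It fell by 0.14 with M5 (SE 0.035, edgeR adjusted p = 0.00129) and rose by 0.21 with lefamulin and 0.25 with retapamulin. Against untreated cells ATF6B was 0.065 with M5 and lefamulin (not called) and 0.10 with M5 and retapamulin (called), but on library totals the values were -0.10 and -0.15, both called, so the direction of this small difference depends on the scaling.

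**Figure D3:**
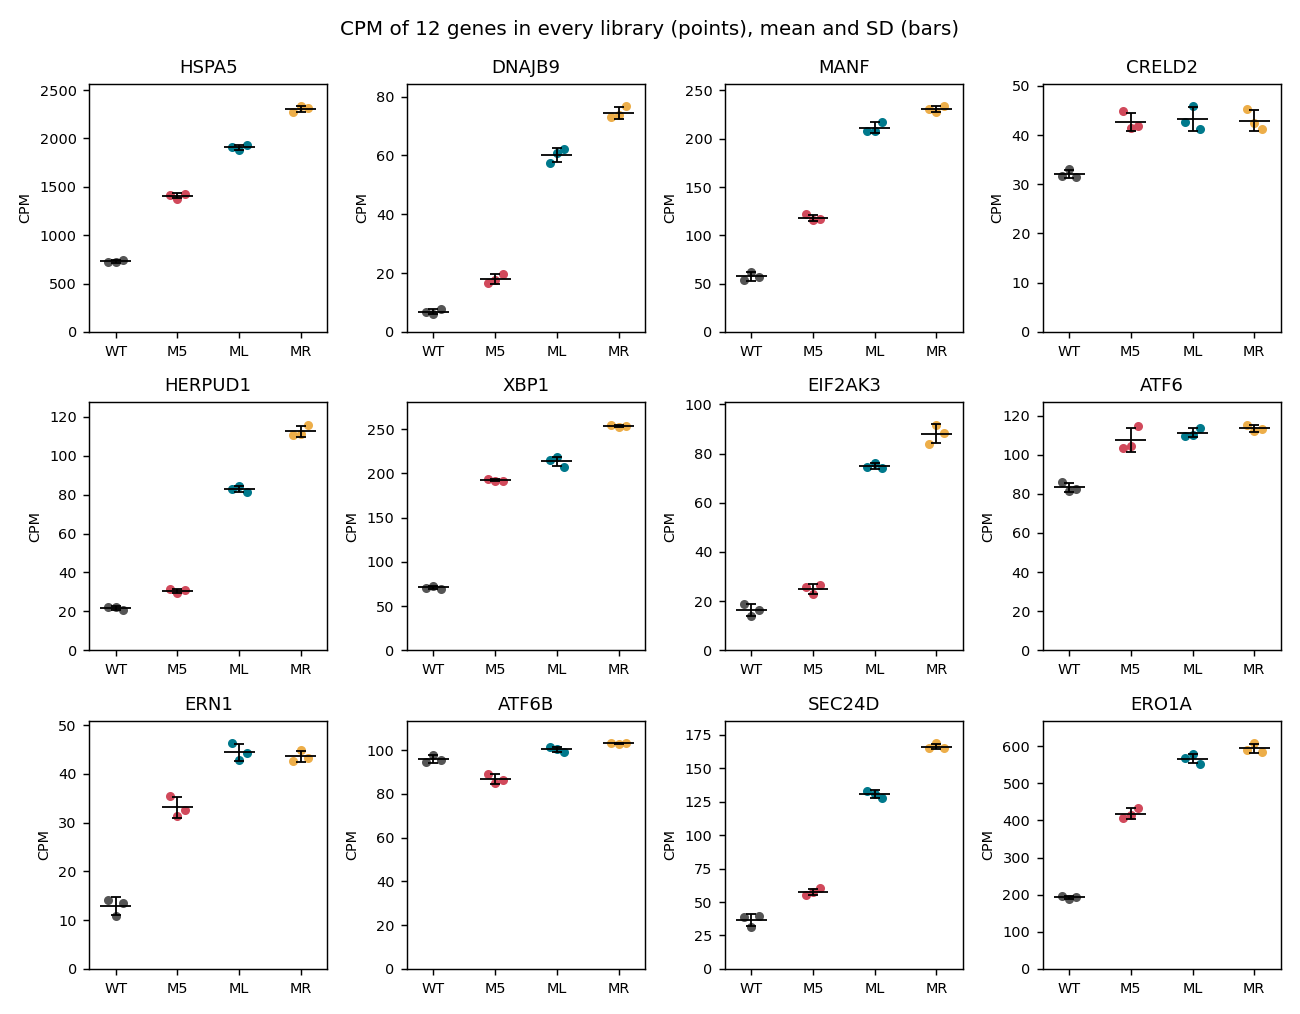
CPM (vertical axes from 0) of 12 genes in each of the 3 libraries of the 4 groups (points), with mean and SD (bars). XBP1 and ERN1 have their widest gap between untreated and M5 libraries, DNAJB9, HERPUD1, EIF2AK3 and SEC24D between M5 and the compounds, and CRELD2 and ATF6 overlap across the 3 treated groups.

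The genes of the ATF4 arm, which PERK and other kinases feed, were read from a list of 17 genes that holds no member of the 41. Of its 16 tested genes, 11 rose and 4 fell with M5, 13 rose and 3 fell with lefamulin, and 12 rose and 2 fell with retapamulin, with medians of 0.34, 0.86 and 1.13. Shares higher were 68.8%, 81.2% and 75%, against 28.3%, 33.6% and 34.1% of all tested genes. Shares lower were 25%, 18.8% and 12.5%, against 26.9%, 34.3% and 38.0%. This list and those below were chosen with earlier results of these data known, so their shares describe the lists and test nothing. ATF4 is the transcription factor whose translation PERK signalling favours. ATF4 was at 221, 233 and 226 CPM in the 3 untreated libraries, 265, 279 and 272 with M5, 486, 486 and 487 with lefamulin added and 555, 563 and 553 with retapamulin added. The 4 groups were separate, with log2 fold changes of 0.26 (SE 0.03), 0.84 (SE 0.03) and 1.03 (SE 0.03). PPP1R15A (GADD34), which reverses the phosphorylation made by PERK, had the largest compound steps of the 5 effectors followed. PPP1R15A was at 55.1, 58.8 and 56.9 CPM in the 3 untreated libraries, 109, 106 and 108 with M5, 379, 369 and 376 with lefamulin added and 517, 508 and 511 with retapamulin added. It rose by 0.92 (SE 0.034, adjusted p = 2.39e-17), 1.80 (SE 0.032, adjusted p = 6.77e-24) and 2.25 (SE 0.032, adjusted p = 6.53e-26).

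DDIT3 (CHOP), a factor linked to death under unresolved stress, was at 17.0, 19.7 and 16.6 CPM in untreated libraries, 22.2, 25.5 and 22.5 with M5, 47.4, 50.2 and 45.9 with lefamulin and 55.8, 56.7 and 56.4 with retapamulin. It rose by 0.40, 1.03 and 1.27. CHAC1, a glutathione-degrading enzyme, rose by 1.13, 0.88 and 1.28. TRIB3, a pseudokinase that feeds back on ATF4, went the other way with M5. TRIB3 was at 58.8, 64.3 and 61.9 CPM in the 3 untreated libraries, 53.2, 53.6 and 49.0 with M5, 163, 156 and 155 with lefamulin added and 188, 198 and 202 with retapamulin added. It fell by 0.25 with M5 (SE 0.046, edgeR adjusted p = 6.13e-05) and rose by 1.60 (SE 0.044) with lefamulin and 1.92 (SE 0.044) with retapamulin. Elsewhere in the list, CEBPB, a C/EBP transcription factor, rose by 2.21 (SE 0.047) with M5, and DDIT4, an inhibitor of mTORC1, rose by 1.98 (SE 0.054) with retapamulin. Apart from the effectors, genes of this and the other lists are named only in steps where they changed most. A step left out may also hold a change, so such genes are not shown to be particular to 1 compound. The kinase gene EIF2AK2 (PKR) fell by 0.55 with lefamulin and by 0.55 with retapamulin, and EIF2S1, the translation factor subunit these kinases phosphorylate, fell by 0.28 and 0.26. Other kinases than PERK also act on ATF4, and which of them acted here was not tested.

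**Figure D4:**
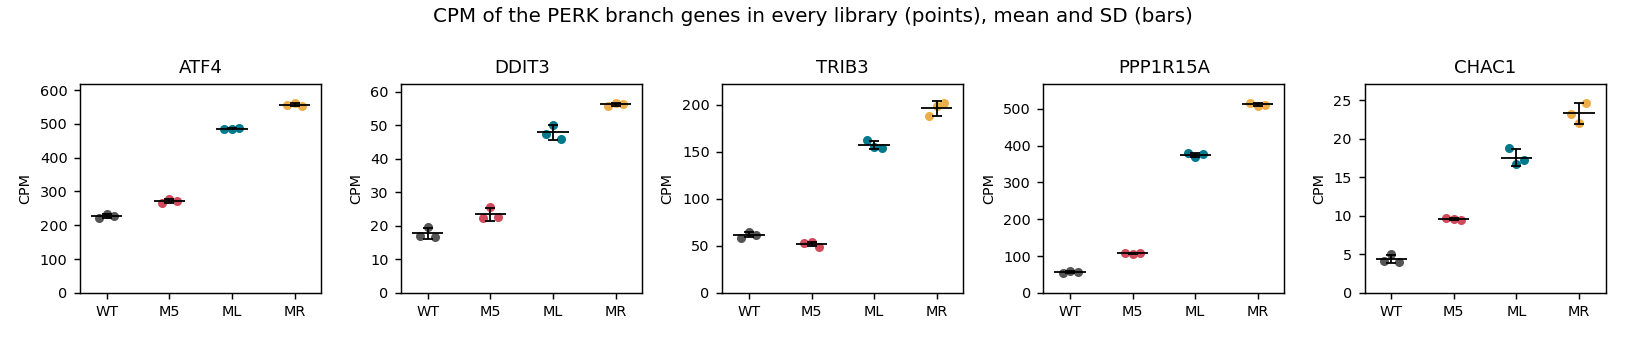
CPM (vertical axes from 0) of ATF4, DDIT3, TRIB3, PPP1R15A and CHAC1 in each of the 3 libraries of the 4 groups (points), with mean and SD (bars). Retapamulin libraries are the highest for all 5 genes, and TRIB3 is lower with M5 than in untreated cells.

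The 3 genes for protein entry into and exit from the ER were called higher in all 3 steps. Across all tested genes the shares called higher were 28.3%, 33.6% and 34.1%. SEC61A1, the pore of the translocon, rose by 0.28, 0.27 and 0.41; it overlaps RUVBL1, and its values are uncertain to that extent. SEC61B, a small translocon subunit, rose by 0.18 with M5 (0.06 on library totals, not called), 0.37 with lefamulin and 0.56 with retapamulin. SEC24D selects cargo for COPII vesicles. SEC24D was at 38.6, 31.5 and 39.5 CPM in the 3 untreated libraries, 55.3, 57.2 and 60.3 with M5, 133, 131 and 128 with lefamulin added and 165, 169 and 165 with retapamulin added. The M5 libraries were above the untreated ones, and both compound groups were more than 2-fold above M5. SEC24D rose by 0.66 (SE 0.058) with M5, 1.18 (SE 0.054, adjusted p = 1.16e-15) with lefamulin and 1.53 (SE 0.054, adjusted p = 4.62e-18) with retapamulin.

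The other genes of COPII coats and cargo receptors were read from a list of 22, all tested. With M5, 15 rose and 1 fell, with lefamulin 17 rose and 2 fell, and with retapamulin 20 rose and 2 fell. Of all tested genes 28.3%, 33.6% and 34.1% were called higher and 26.9%, 34.3% and 38.0% lower. This list had 68.2%, 77.3% and 90.9% higher and 4.55%, 9.09% and 9.09% lower. The medians were 0.15, 0.35 and 0.52, and 0.036, 0.31 and 0.39 on library totals. SEC31A, an outer coat subunit, went from 88.5 to 187 CPM (means) with lefamulin, a rise of 1.08 (SE 0.037), and to 245 with retapamulin, a rise of 1.47 (SE 0.037). KDELR3, a receptor that returns chaperones from the Golgi, fell by 0.66 with M5 and rose by 1.34 with lefamulin and 1.61 with retapamulin. MIA3, which helps to load large cargo, fell by 0.17 with lefamulin and 0.24 with retapamulin, as did SAR1B, a COPII GTPase, by 0.17 and 0.12. MIA2 rose by 0.68 and SEC23B by 0.51 with M5.

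In the list of translocon, signal recognition and signal peptidase genes, 15 of 22 rose and 2 fell with M5, 11 rose and 5 fell with lefamulin, and 13 rose and 3 fell with retapamulin. Of all tested genes 28.3%, 33.6% and 34.1% were called higher and 26.9%, 34.3% and 38.0% lower. The list had 68.2%, 50% and 59.1% higher and 9.09%, 22.7% and 13.6% lower. The medians were 0.28, 0.11 and 0.20, and 0.16, 0.063 and 0.068 on library totals. SRPRA, the signal recognition particle receptor, rose by 0.59 with M5. SSR3, a translocon-associated subunit, rose by 0.45 with lefamulin and 0.78 with retapamulin, and SEC61G, the smallest SEC61 subunit, by 0.55 and 0.75. SRP9, part of the signal recognition particle, fell by 0.12 with M5, 0.32 with lefamulin and 0.35 with retapamulin. Among 17 genes of N-glycan transfer and trimming, 9 rose and 3 fell with M5, 8 rose and 3 fell with lefamulin, and 9 rose and 2 fell with retapamulin. Of these 17 genes 52.9%, 47.1% and 52.9% were higher and 17.6%, 17.6% and 11.8% lower. Their medians were 0.12, 0.0024 and 0.096, and on library totals 0.0064, -0.044 and -0.040, so their direction as a list depends on the scaling. OSTC, a subunit of oligosaccharyltransferase, rose by 0.46 and 0.73, and GANAB, the catalytic subunit of glucosidase II, fell by 0.20 and 0.13.

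Of 22 tested disulfide isomerases, prolyl isomerases and chaperones outside the 41 genes, 14 rose and 2 fell with M5, 10 rose and 7 fell with lefamulin, and 9 rose and 9 fell with retapamulin. With retapamulin that was 40.9% higher and 40.9% lower, near the 34.1% and 38.0% of all tested genes. With lefamulin 45.5% were higher and 31.8% lower, against 33.6% and 34.3%. With M5 63.6% of these isomerases and chaperones were higher and 9.09% lower, against 28.3% and 26.9%. The medians were 0.15, 0.072 and 0.11, and 0.027, 0.025 and -0.023 on library totals. PDIA5, a disulfide isomerase, rose by 0.68 with M5 and 0.61 with lefamulin. FKBP14, a prolyl isomerase, rose by 0.90 and 0.88 with the compounds. SERPINH1 (HSP47), the collagen chaperone, fell by 0.52 and 0.64. GPX8, a peroxidase of the ER, fell by 0.73 with M5 and rose by 0.76 with retapamulin.

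Of 20 other genes of ER-associated degradation, 11 rose and 4 fell with M5, 9 rose and 5 fell with lefamulin, and 12 rose and 5 fell with retapamulin. The shares higher were 55%, 45% and 60%, against 28.3%, 33.6% and 34.1% of all tested genes, and the shares lower 20%, 25% and 25%, against 26.9%, 34.3% and 38.0%. The medians were 0.12, 0.072 and 0.17, and -0.0025, 0.026 and 0.038 on library totals. ERLEC1, a lectin close in role to OS9, rose by 0.45, 0.98 (SE 0.037) and 1.28 (SE 0.037). ERLIN1 and ERLIN2, which form a complex that degrades the inositol trisphosphate receptor, fell with both compounds: ERLIN1 by 0.86 and 0.76, ERLIN2 by 0.64 and 0.53. Among 16 tested regulators of the response outside the 41 genes, 11 rose and 1 fell with M5, 4 rose and 7 fell with lefamulin, and 6 rose and 8 fell with retapamulin. With the compounds 25% and 37.5% were higher, against 33.6% and 34.1% of all tested genes, and 43.8% and 50% lower, against 34.3% and 38.0%. With M5 68.8% of these regulators were higher and 6.25% lower, against 28.3% and 26.9%. Their medians were 0.17, -0.028 and -0.091, and 0.056, -0.075 and -0.23 on library totals. MBTPS2, the protease that makes the last cut in ATF6, went from 55.4 to 30.9 CPM (means) with lefamulin and to 28.4 with retapamulin, falls by 0.84 and 0.96 on the log2 scale. FICD, which modifies BiP, rose by 0.53 with M5 and 1.09 with retapamulin, and CREB3, a relative of CREB3L2, rose by 0.58 and 0.71 with the compounds.

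Lefamulin and retapamulin were compared directly, as 1 pair of compounds; since neither dose nor time is given, these are differences between the libraries as labelled. Of the 40 genes, 23 were lower with lefamulin than with retapamulin, 2 were higher and 15 were not called, while 21.2% of all tested genes were called lower and 18.8% higher. On library totals alone 11.7% of all tested genes were lower and 31.2% higher, with 13 of the 40 genes lower and 3 higher. On RLE size factors 26.1% were lower and 15.2% higher, with 28 of the 40 genes lower and 0 higher. The median difference of the 40 genes, lefamulin minus retapamulin on the log2 scale, was -0.13, and -0.042 on library totals, where that of all tested genes was 0.10. The differences were small, from -0.44 for HERPUD1 to 0.20 for ERO1B, and none of the 40 genes differed 2-fold. Of all tested genes 0.739% were at least 2-fold lower and 2.51% at least 2-fold higher.

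The gene with the widest difference was HERPUD1, at -0.44 (95% interval -0.52 to -0.36, edgeR adjusted p = 5.63e-09), and its libraries did not overlap. SEC24D followed at -0.35 (-0.45 to -0.24), DNAJB9 at -0.31 (-0.43 to -0.19), CALR at -0.31 (-0.36 to -0.25) and DNAJC10 at -0.30 (-0.37 to -0.23). HSPA5 differed by -0.27 (-0.33 to -0.22, adjusted p = 1.23e-08), HYOU1 by -0.25, XBP1 by -0.25 and EIF2AK3 by -0.23. All 3 retapamulin libraries were above all 3 lefamulin libraries for each of these 9 genes. The same held for genes that were not called, such as HSPA13, ERO1A, EDEM1, DERL1, DERL2 and ATF6B. The 9 genes are named for the size of their differences, and the share of all tested genes separated in this way was not computed. The calls of 13 genes (HSPA5, HSP90B1, HYOU1, CALR, CANX, DNAJB9, DNAJC10, PDIA4, P4HB, HERPUD1, XBP1, SEC61B and SEC24D) held under every alternative run other than a minimum fold of 1.2, at which HERPUD1 was the 1 gene still called. The calls of the other 10 genes lower with lefamulin (DNAJB11, MANF, PDIA3, PDIA6, SYVN1, SELENOS, SELENOK, EIF2AK3, CREB3L2 and SEC61A1) were lost on library totals, where EIF2AK3 differed by -0.14 (adjusted p = 0.0612) and DNAJB11 by -0.0035 (adjusted p = 0.934). For EIF2AK3 the call was also lost in limma on FPKM (adjusted p = 0.17 and 0.218 for pseudocounts of 1 and 0.1). Among the 5 effectors of the ATF4 arm, PPP1R15A differed by -0.45 (SE 0.03, adjusted p = 3.03e-11), CHAC1 by -0.41 (SE 0.081, adjusted p = 2.99e-04), TRIB3 by -0.32 (SE 0.041, adjusted p = 1.65e-06), DDIT3 by -0.23 (SE 0.057, adjusted p = 0.00211) and ATF4 by -0.20 (SE 0.029, adjusted p = 9.54e-06). Between the compounds, 21.2% of all tested genes were called lower with lefamulin and 18.8% higher. Of the lists outside the 41 genes, 18 of 22 COPII genes were lower with lefamulin and 0 higher, 12 of 22 translocon genes lower and 0 higher, and 10 of 16 genes of the ATF4 arm lower and 1 higher. Their median differences were -0.17, -0.12 and -0.21, and -0.083, -0.032 and -0.12 on library totals. The remaining lists were less one-sided. In other ER-associated degradation 10 of 20 genes were lower and 2 higher, and in N-glycan transfer and trimming 8 of 17 were lower and 2 higher. Among other regulators 6 of 16 were lower and 2 higher. The other isomerases and chaperones had 5 of 22 lower and 5 higher, 22.7% each, near the shares of all tested genes.

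Genes not called between the compounds had differences such as 0.029 for ERN1 (95% interval -0.10 to 0.16), -0.031 for ATF6 (-0.11 to 0.054), -0.039 for ATF6B (-0.11 to 0.034), 0.01 for CRELD2 (-0.096 to 0.12), 0.014 for UGGT1 (-0.066 to 0.095) and -0.027 for SEL1L (-0.11 to 0.052). DNAJC3, EDEM3, DERL1, DERL2, ERO1A, HSPA13, SDF2L1 and EDEM1 lay between -0.10 (HSPA13) and -0.02 (EDEM3), and EDEM2 was at -0.16 (-0.90 to 0.57). These intervals hold the size of difference that the libraries leave possible and do not show that the compounds act alike. Some of these genes were called under other settings. HSPA13, ERO1A and DERL1 were called lower with lefamulin under RLE size factors, DESeq2 and the stricter filter, and DERL2 under RLE size factors and DESeq2. On library totals UGGT1 was called higher with lefamulin, at 0.10. ERO1B and OS9 were the 2 genes higher with lefamulin, by 0.20 (SE 0.073, adjusted p = 0.0343) and 0.089 (SE 0.035, adjusted p = 0.0455), and neither call was firm. The ERO1B call was lost with RLE size factors, with DESeq2 (adjusted p = 0.0911), and without lefamulin library 1 (0.125) or 2 (0.09) or retapamulin library 1 (0.0729), 2 (0.0944) or 3 (0.0687). The OS9 call was lost with DESeq2 (0.212), with lefamulin library 1, 2 or 3 left out (0.0936, 0.06 and 0.157) and with retapamulin library 2 or 3 left out (0.0655 and 0.253).

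Some of the smaller called differences also rested on single libraries. DNAJB11 (-0.093) was not called without lefamulin library 1 (adjusted p = 0.105) or retapamulin library 3 (0.0587). MANF (-0.13) was not called without lefamulin library 1 (0.0708) or 2 (0.0662) or retapamulin library 3 (0.0661), and the same libraries decided SELENOK (-0.14, then 0.0928, 0.0614 and 0.0861). SYVN1 (-0.12), whose libraries overlapped, was not called without lefamulin library 2 (0.0931) or 3 (0.0835) or retapamulin library 2 (0.106) or 3 (0.205). EDEM1 (-0.095, adjusted p = 0.0519) was called without retapamulin library 1 (0.0464). With all libraries kept, EDEM1 was also called with RLE size factors, DESeq2, no filter, the stricter filter and a fit of only the groups compared. All of these values are from edgeR.

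**Figure D5:**
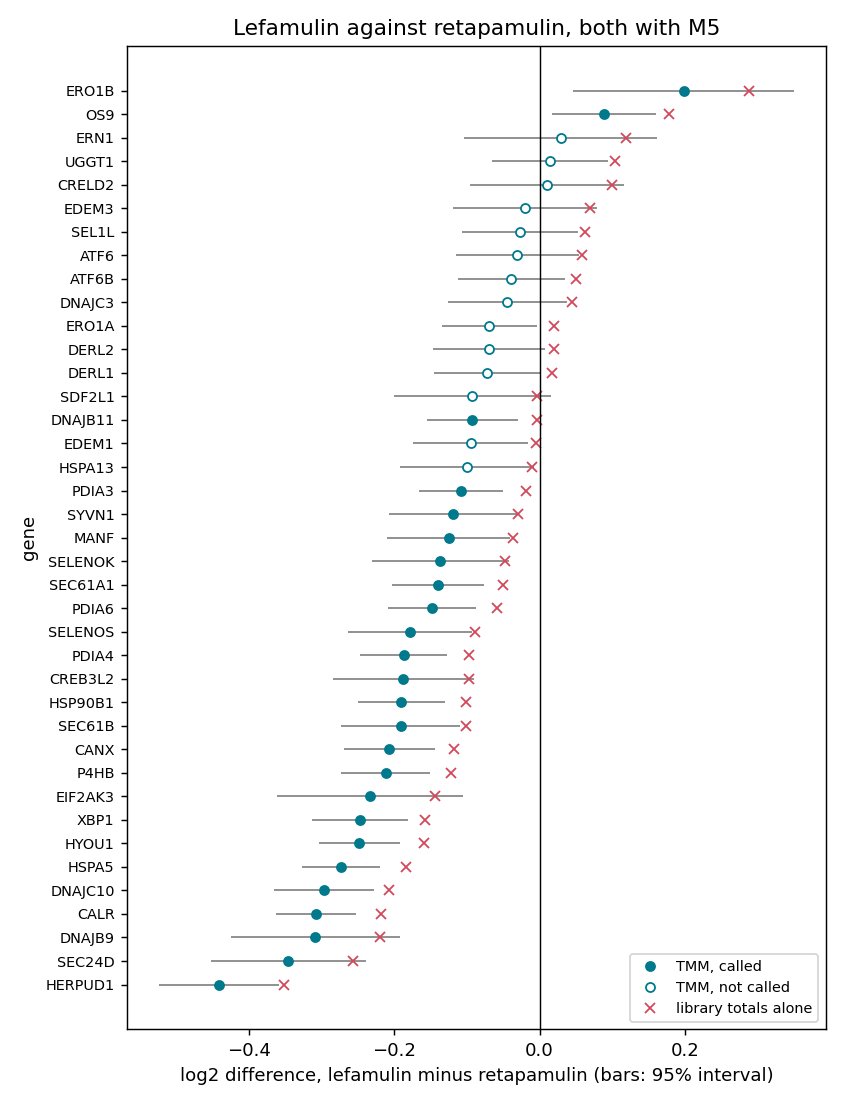
Difference between lefamulin and retapamulin, both with M5, on the log2 scale (circles with 95% intervals, filled where called) and on library totals alone (crosses), for 39 tested genes, ordered by size; EDEM2, whose interval is far wider, is left out. HERPUD1, SEC24D and DNAJB9 lie farthest left, and the crosses sit to the right of the circles throughout.

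Compared per length of transcript, as FPKM from the authors' deposited table, the genes covered a wide range. In untreated cells the highest mean levels were those of CALR (507 FPKM), HSP90B1 (371), P4HB (267) and HSPA5 (204). With M5 and retapamulin the order of these 4 was CALR (814), HSP90B1 (585), HSPA5 (541) and P4HB (426). The genes with the steepest changes were less abundant: DNAJB9 went from 3.13 to 28.4 FPKM, HERPUD1 from 8.37 to 36.3 and EIF2AK3 from 3.66 to 16.5. ERO1B (0.624 FPKM in untreated cells) and EDEM2 (0.328) were the lowest of the tested genes. DERL3 was listed at 0 counts in the 3 M5 libraries and had 2, 1 and 1 counts in the untreated, lefamulin and retapamulin groups, so no fold is given.

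Each library held 35110519 to 37520999 counts, and replicate libraries of every group differed beyond counting noise, so none was treated as a duplicate. All 12 keratinocyte markers were tested, with a summed level of 3848 to 3970 CPM in untreated, 3887 to 4035 in M5, 4999 to 5092 in lefamulin and 6087 to 6175 in retapamulin libraries. The levels of single markers differed in direction between groups, and the markers given here were chosen after their values were seen. LAMB3, a laminin chain, had means of 300.1, 753, 1723 and 2519 CPM in untreated, M5, lefamulin and retapamulin libraries. The basal keratin KRT5 had means of 1632, 637, 454 and 437 CPM in the same order, and KRT17 had 29.0, 18.8, 4.09 and 4.62. KRT14, another basal keratin, was low throughout, at 8.52 CPM in untreated and 0.730 CPM in retapamulin libraries. The 8 fibroblast markers summed to 16.0 to 16.8 CPM in untreated, 16.8 to 17.9 in M5, 26.1 to 27.9 in lefamulin and 18.9 to 19.97 in retapamulin libraries. Most of this was COL1A1, with means of 7.42, 6.09, 15.9 and 10.2 CPM in that order, and TWIST2, with 8.69, 10.9, 10.9 and 9.04. COL1A2 was at 0 in M5 and lefamulin libraries and LUM at 0 in all but the lefamulin libraries. The 4 endothelial markers in the table summed to 14.7 to 16.8 CPM in untreated libraries and 99.9 to 123.0 CPM in the others, nearly all of it CDH5, with PECAM1 at a group mean of 0.020 CPM or less. The 7 leukocyte markers in the table summed to 12.2 to 14.1 CPM in untreated, 29.9 to 31.3 in M5, 39.5 to 43.0 in lefamulin and 74.9 to 84.8 in retapamulin libraries, nearly all of it CD68, with PTPRC at a group mean of 0.017 CPM or less. The 5 melanocyte markers in the table summed to 2.44 CPM at most. The part of these shifts in the values of the 41 genes was not tested.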

How the data were processed

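RNA sequencing of HaCaT cells gave 12 libraries, 3 in each of 4 groups taken from the labels. The authors deposited whole-number counts per gene symbol, and the submitters' processing notes name HISAT2 and HTSeq, while the version of either tool, the strand setting, the counting mode and the genome build were not stated in any label or file header used. The FPKM values of the authors' second deposited table equalled count over a fixed gene length over library total, within a coefficient of variation of 3.92e-07 for 20422 genes. The extraction text speaks of mouse epidermis, which goes against the HaCaT source label, and was not used.

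The tests ran on counts in edgeR 4.0.16 (R 4.3.3). Low genes were filtered by filterByExpr, scaled by TMM and fitted with 1 mean per group to all 12 libraries, after the script was tested on simulated data. The biological coefficient of variation was 0.0449. Each of 6 comparisons used the quasi-likelihood test with Benjamini-Hochberg adjustment over 14207 genes. The 41 genes, the pathway lists and the markers were chosen with earlier results of these data known. Every one of the 41 may be named; from each pathway list the called genes that rose most (up to 2) and fell most (up to 2) in each step, at 5 CPM or more in a group, and the effectors ATF4, DDIT3, TRIB3, PPP1R15A and CHAC1. Promoters came from RefSeq GRCh38.p14, and motifs were searched on both strands; the coordinates are those of RefSeq, since the authors' build is not given. Of the 41 genes, 11 overlap another gene of the table and are uncertain to that extent. Alternatives were RLE factors, library totals, DESeq2 1.42.0, other filters, fits of the groups compared, a replicate block, limma 3.58.1 on the deposited FPKM after log2 (pseudocount 1 or 0.1), a minimum fold of 1.2 and leaving out each library.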

Additional observations from a re-analysis of the deposited data

How the results depend on the processing

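Over 6 comparisons, 3834 values of single genes were recomputed under the alternatives. Of these, 3662 were counted as kept, 127 lost the call, 30 gained it and 15 changed sign. A difference called neither before nor after was counted as kept whatever its sign, so the 15 cover only values called before or after. Uncalled differences could change sign too, such as DNAJC3 between the compounds, at -0.044 and at 0.045 on library totals. The 15 counted sign changes were on library totals and in limma on FPKM (log2, pseudocount 1, then 0.1), given in that order. OS9 with M5 was -0.00999, -0.009554 and -0.009686. UGGT1 with retapamulin was -0.04225, -0.03973 and -0.04194, and CRELD2 was -0.1267, -0.1184 and -0.126. ATF6B against untreated cells was -0.1001, -0.09757 and -0.09983 with M5 and lefamulin, and -0.1506, -0.1465 and -0.15 with M5 and retapamulin. These settings scale by library totals and leave out TMM.

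The count of genes lower was thus 1 under each of these 3 settings for retapamulin against M5 and for each compound with M5 against untreated cells, in place of 0. With a minimum fold of 1.2, 0 genes were lower with M5. Between lefamulin and retapamulin, the count lower was 13 on library totals, 14 and 14 in limma and 1 at the minimum fold, and 19 to 24 with 1 library left out. The count higher was 0 with RLE, DESeq2, no filter or the minimum fold, 1 with the stricter filter and 0 to 1 with 1 library left out. On library totals, the share of higher among all calls moved from 51.3% to 31.5% for M5, 47.3% to 37.4% for M5 with retapamulin against M5 and 49.9% to 38.6% and 47.8% to 33.7% for lefamulin and retapamulin with M5 against untreated cells.

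Deviations of same-numbered libraries from their group means had correlations of -0.144 to 0.184, and of others -0.271 to 0.26. With 3 libraries per group, these values cannot decide whether same-numbered libraries shared a culture or batch, and the labels do not say. With a replicate block, the count of genes higher with lefamulin than with retapamulin went from 2 to 1, and no other call among the 40 genes changed. EDEM2 and DERL3, which both overlap other genes, had few counts, and the reason was not tested.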
